A study of Mus musculus with 8 samples.

Results

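Cadherins are calcium-dependent adhesion proteins of the cell surface. Classical cadherins join cells of a kind and hold catenins at their cytoplasmic tails, which tie the junction to actin. Protocadherins lack that catenin tail and are best known for sorting neurons, and the giant Fat and Dachsous cadherins bind each other between neighbouring cells and act on planar polarity and Hippo signalling. In the stroma of many organs Cdh11 is the cadherin by which fibroblasts adhere to one another.

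The genes described here are those with a mouse symbol that starts with Cdh and a digit, Pcdh or Celsr, or that is Fat1 to Fat4, Dchs1 or Dchs2, and that a transcript cluster of the array names alone. There were 63 of them among 30702 genes with such a cluster, with 1 cluster each: 18 classical cadherins, 5 other Cdh genes, 12 non-clustered protocadherins, 20 Pcdhb genes, 4 Fat genes, Dchs1 and 3 Celsr genes. A further 2 clusters named several protocadherins each and were left out. The 63 hold no Pcdha or Pcdhg gene and no Dchs2, so of the clustered protocadherins only Pcdhb genes are described. Expression was measured in wild-type C57BL/6J mice, in colon fibroblasts sorted as lacking Epcam, CD45 and CD31 and carrying gp38 (podoplanin), and then split by CD90, the surface protein coded by Thy1. Each population, CD90-negative and CD90-positive, had 4 samples on 1 array each, drawn from 4 mice; the samples are called by their title numbers, 13, 15, 17 and 19 for CD90-negative and 14, 16, 18 and 20 for CD90-positive. The labels tie no sample to a mouse and give no age. Each p-value therefore reflects only how far these 8 samples vary, which may in part be technical. The comparison asks how the 2 populations differ in expression.

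Values are log2 expression as deposited, differences are CD90-positive minus CD90-negative, and errors are SD (n = 4) for means and SE for differences. A gene was tested if its cluster reached 5.36, the median of all clusters, in at least 4 samples. It is called bright where its mean in at least 1 population lay above the middle value of the negative control probesets, on average 6.81 for CD90-negative and 6.64 for CD90-positive samples, and dim otherwise. The size of a difference is not exact where a mean lay below the control rows, and the top of the scale, 19.90, exceeds what a 16-bit scan can hold, so folds hold for the deposited scale alone. A call is a limma adjusted p under 0.05 with Benjamini-Hochberg adjustment over all 17221 genes tested.

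As a check of the sort, Thy1 averaged 5.52 ± 0.046 without and 7.69 ± 0.47 with CD90 (two-sided exact permutation test over 70 assignments, p = 0.0286, the lowest possible for groups of 4). Of 7 measured fibroblast markers, 6 lay above the control rows in CD90-negative samples and 7 in CD90-positive ones. The list holds Thy1 and Pdpn, which code for the sorted proteins CD90 and podoplanin, and Thy1 alone makes the difference between 6 and 7. Samples 13 and 14 stood apart by sex-linked genes, with Xist at 16.16 and 16.27 against 5.89 to 9.32 in the other samples. Uty, another such gene, went the other way, at 5.49 and 5.56 against 9.65 to 10.06. Cwc22 set samples 17 to 20, at 13.47 to 14.70, apart from samples 13 to 16, at 7.86 to 9.43. Both splits hold samples of both populations, and values within them are given where they matter. In bulk RNA, fewer cells of a type and less RNA per cell cannot be told apart.

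In the CD90-positive population the fibroblast cadherin Cdh11, the giant cadherins Fat1 and Fat4 and Pcdh12 were lower, while Pcdh18, Pcdh19 and Cdh19 were higher. Of the 63, 37 passed the filter and were tested; 8 were called lower and 6 higher. Over all genes tested 29.7% were called, 15.7% lower and 14% higher. The populations did not overlap in 14 of the 37 tested members, against 32.3% of all genes tested. By level, 12 of 26 bright members were called, against 34.9% of bright genes; 4 were higher and 8 lower, against 16% and 18.9%, and 12 had populations that did not overlap, against 37.5%. Of the 20 members bright in both populations 9 were called, 2 higher and 7 lower, against 32.8%, 13.9% and 18.8%. The same 9 did not overlap, against 35.7%. Of the 2 higher, Pcdh19 was bright in the CD90-negative population through sample 13 alone. Of 11 dim tested members 2 were called, against 15.7% of dim genes; both were higher and 0 lower, against 8.61% and 7.08%, and both did not overlap, against 18.2%. The 2 dim calls, Cdh2 and Cdh22, and Cdh6 among the bright ones passed the filter through their CD90-positive values alone. Their calls and their lack of overlap are thus partly a condition of being tested. The median difference was 0.025 over the tested members and -0.014 over all genes tested. If samples with consecutive title numbers are treated as pairs, which no label states, 10 members were called higher and 9 lower (limma), and over all genes tested 34.5% were called in that fit, 16.1% higher and 18.4% lower.

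Markers of smooth muscle and pericytes moved in both directions beside these genes. Of 10 tested smooth muscle markers 4 fell, with differences of -5.20 for Casq2, -2.31 for Tagln, -2.13 for Acta2 and -1.17 for Smtn. The other 5 called rose, among them Cnn1 by 1.77 and Actg2 by 1.30, and the list's mean ranged from 9.46 to 10.12 in CD90-negative samples and from 8.94 to 10.21 in CD90-positive ones. Of 6 tested pericyte markers 3 fell, with differences of -3.37 for Abcc9, -2.10 for Kcnj8 and -1.53 for Cspg4. The other 3 rose, Rgs5 by 1.49, Mcam by 1.37 and Notch3 by 0.23, and the list means were 7.04 to 7.30 and 6.60 to 6.82. Of 2 tested markers of interstitial cells of Cajal, Ano1 fell by 3.23, Kit was not called and 0 rose. The list mean was 9.72 in sample 13, 7.14 to 7.60 in the other CD90-negative samples and 6.15 to 6.99 in CD90-positive ones. The part of smooth muscle, pericytes or interstitial cells in the falls of Cdh11, Fat1, Fat4 and Pcdh12 was not tested.

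**Figure D1:**
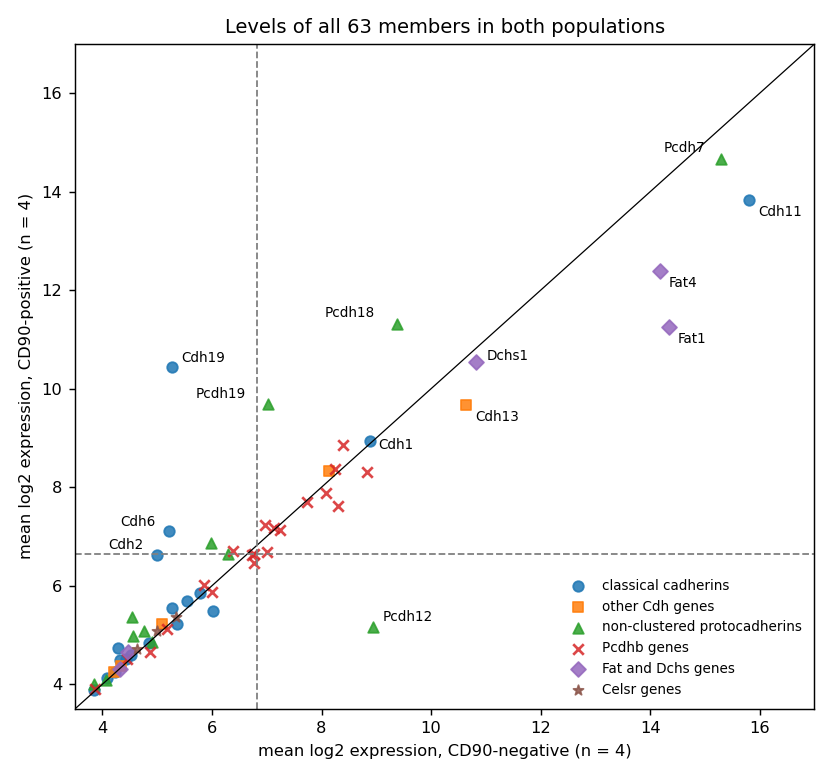
Mean log2 expression of all 63 members in the CD90-negative population (horizontal axis) and the CD90-positive population (vertical axis), n = 4 each, with a marker shape for each subfamily; dashed lines are the median of the negative control rows in each population (6.81 and 6.64) and the solid line marks equal levels. Cdh11, Fat1, Fat4, Pcdh7 and Pcdh12 lie below the line of equal levels, Cdh19, Pcdh19 and Pcdh18 lie above it, and 37 members are dim in both populations.

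Cdh11, the fibroblast cadherin, was bright in both populations and lower in the CD90-positive one. Its values were 15.66, 16.07, 15.66 and 15.85 in CD90-negative samples 13, 15, 17 and 19, and 14.11, 13.74, 13.77 and 13.72 in CD90-positive samples 14, 16, 18 and 20. The lowest CD90-negative sample was thus well above the highest CD90-positive sample, sample 14. The difference was -1.97 ± 0.12, a 3.92-fold lower level on this scale (limma adjusted p = 7.59e-06).

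The other classical cadherins that were called all rose, and all of them started from values below the control rows. Cdh19, a cadherin of glial and Schwann cells, was at 5.68, 5.37, 4.93 and 5.13 in the CD90-negative samples and at 8.97, 11.74, 10.07 and 10.96 in samples 14, 16, 18 and 20. The populations were far apart, and the CD90-positive samples spread over almost 3 log2 units with sample 14 lowest. The difference was 5.16 ± 0.52 (limma adjusted p = 0.00012), 3.30 between samples 13 and 14 and 5.78 in the other samples.

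Cdh2, N-cadherin of neurons, glia and mesenchyme, was at 5.26, 4.92, 5.05 and 4.76 in the CD90-negative samples and at 5.72, 7.34, 6.32 and 7.15 in samples 14, 16, 18 and 20. The CD90-positive samples kept the order seen for Cdh19, with sample 14 lowest and sample 16 highest, and the populations did not overlap. The difference was 1.63 ± 0.33 (limma adjusted p = 0.0059), with both means below the control rows. It was 0.46 between samples 13 and 14 and 2.03 in the other samples.

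Marker genes of enteric glia moved with both. Of 15 tested genes of the glia list, 14 rose and 0 fell, 2 of the 14, Gfap and Mbp, having passed the filter through their CD90-positive values alone, and of 17 measured 4 were above the control rows in CD90-negative samples and 10 in CD90-positive ones. The list's mean ranged from 6.22 to 6.45 and from 7.43 to 8.22. Sample 14 had the lowest list mean of the CD90-positive samples and sample 16 the highest, as for Cdh19. That order was not particular to glia. Thy1 had it too, at 7.03 in sample 14 and 8.11 in sample 16. So did the means of the leukocyte list (5.51 and 5.85) and the endothelial list (5.80 and 6.29). The glial transcription factor Sox10 was at 5.64 and 6.87 on average and the calcium-binding S100b at 5.71 and 6.88. All 3 tested genes of the neuron list rose as well, while the other 10 measured were too dim to test. The part of glial or neuronal RNA in these differences was not tested.

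**Figure D2:**
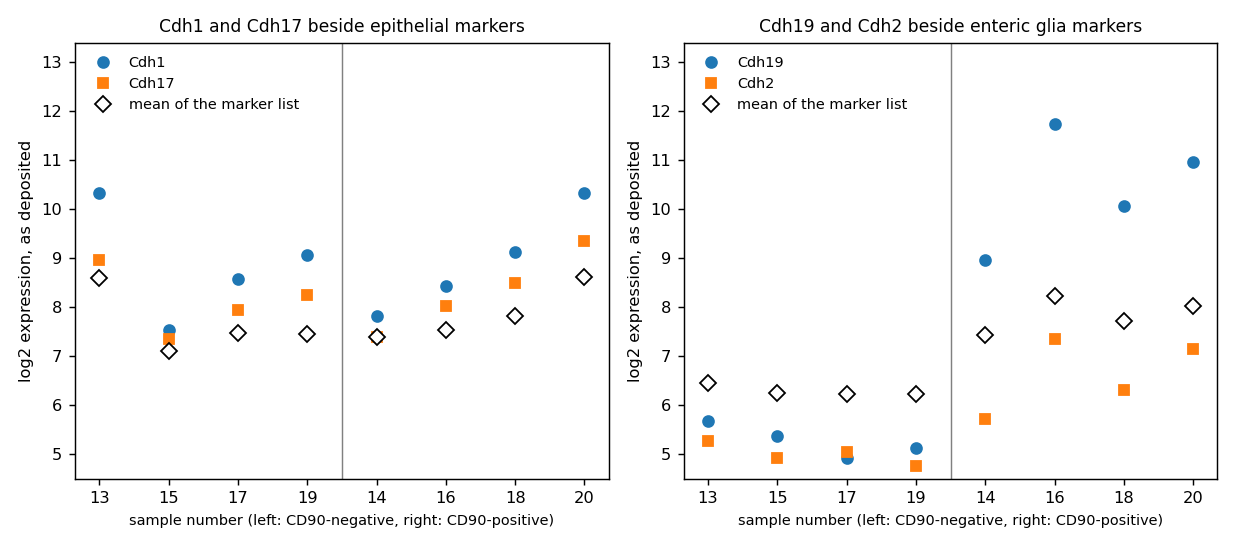
Log2 expression of Cdh1 and Cdh17 with the mean of the epithelial marker list (left) and of Cdh19 and Cdh2 with the mean of the enteric glia marker list (right) in each sample; CD90-negative samples stand left and CD90-positive samples right of the vertical line. Cdh1 and Cdh17 are high in samples 13 and 20, where the epithelial list is at 8.60 and 8.62, and Cdh19, Cdh2 and the glia list are all higher in the CD90-positive samples, with sample 14 lowest among them.

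Cdh6, a kidney and neural crest cadherin, was at 5.27, 5.30, 5.25 and 5.05 in the CD90-negative samples and at 8.37, 6.81, 6.72 and 6.53 in samples 14, 16, 18 and 20. Here sample 14 was the highest, unlike for Cdh19, and the other CD90-positive samples lay near the control rows. The difference was 1.89 ± 0.36 (limma adjusted p = 0.00446), 3.10 between samples 13 and 14 and 1.49 in the other samples. The smooth muscle list was also high in sample 14, with a mean of 10.21 against 8.94 to 8.98 in the other CD90-positive samples. In the CD90-negative samples, where Cdh6 was at 5.05 to 5.30, the list's mean was higher than in those 3, at 9.46 to 10.12. The mesothelium list, with 2 of 4 tested genes called higher and 0 lower, had means of 5.24 to 5.59 in CD90-negative samples. In CD90-positive samples its means were 5.77 to 6.07, highest in sample 14 and below the control rows throughout. Of those 2 genes, Upk3b passed the filter through its CD90-positive values alone. The part of either list in the Cdh6 value was not tested. Cdh22, a cadherin known from brain, rose by 0.27 ± 0.073 with both means dim, at 5.28 ± 0.072 and 5.54 ± 0.11 (limma adjusted p = 0.0251). Its call was lost without any 1 of samples 13, 16, 17, 18 or 19, with limma adjusted p from 0.0505 to 0.066. Cdh2, Cdh6 and Cdh22 passed the filter through their CD90-positive values alone, so their difference is partly a condition of being tested.

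The epithelial and endothelial cadherins Cdh1, Cdh17 and Cdh5 showed no called difference. Cdh1, the E-cadherin of epithelial junctions, was at 10.33, 7.54, 8.57 and 9.07 in samples 13, 15, 17 and 19 and at 7.82, 8.43, 9.13 and 10.34 in samples 14, 16, 18 and 20. The populations overlapped fully, and samples 13 and 20 were the highest. The difference was 0.052 ± 0.66 (95% interval -1.46 to 1.56; limma adjusted p = 0.964). Cdh17, a cadherin of intestinal epithelium, had the same order of samples within each population, from 7.35 in sample 15 to 8.96 in sample 13 and from 7.39 in sample 14 to 9.36 in sample 20. Its difference was 0.19 ± 0.45 (limma adjusted p = 0.789).

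The epithelial marker list followed these samples, with 0 of 13 tested genes called. The list's mean reached 8.60 in sample 13 and 8.62 in sample 20, while the remaining samples had means of 7.10 to 7.82, although the sort gate excluded Epcam-bearing cells. Epcam itself was at 9.19 in sample 13 and 9.40 in sample 20. The part of epithelial RNA in the Cdh1 and Cdh17 values was not tested. Cdh5, the cadherin of endothelial junctions, was dim in both populations, at 5.54 ± 0.30 and 5.70 ± 0.61 (difference 0.16 ± 0.29; limma adjusted p = 0.725). Between samples 13 and 14 its difference was -0.99. Without them it was called higher by 0.54 (limma adjusted p = 0.0449), while leaving out any 1 sample gave 0.0083 to 0.46 and no call.

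Cdh13, a cadherin anchored by a lipid and without a cytoplasmic tail, was bright in both populations. It was at 10.37, 10.49, 11.00 and 10.71 in the CD90-negative samples and at 8.14, 9.74, 10.58 and 10.23 in samples 14, 16, 18 and 20. Sample 14 was far below the rest, and the populations overlapped through sample 18. The difference was -0.97 ± 0.47 (95% interval -2.03 to 0.094; limma adjusted p = 0.157). With a term for samples 13 and 14 the same difference was called (limma adjusted p = 0.0464), and it was -2.23 between those samples and -0.55 in the other 6. Without sample 14 alone it was -0.46 (limma adjusted p = 0.155).

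Cdh18 and Cdh24, both classical cadherins known from the nervous system, were tested and dim. Cdh18 differed among samples more than between populations, at 7.19 and 6.73 in samples 17 and 19, 6.00 and 5.70 in samples 18 and 20, and 4.95 to 5.22 in samples 13 to 16. The samples above 5.5 were thus those numbered 17 to 20, in both populations (difference -0.52 ± 0.50; limma adjusted p = 0.486). Cdh24 was at 5.79 ± 0.074 and 5.86 ± 0.069 (limma adjusted p = 0.457). The other 12 Cdh genes, Cdh3, Cdh4, Cdh7 to Cdh10, Cdh12, Cdh15, Cdh16, Cdh20, Cdh23 and Cdh26, did not pass the filter, with all values between 3.79 and 5.69.

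The Fat genes that were bright fell together with their partner. Fat1, a giant cadherin that restrains growth and shapes the actin cortex, was at 14.43, 14.27, 14.21 and 14.46 in the CD90-negative samples and at 11.26, 11.32, 11.13 and 11.31 in samples 14, 16, 18 and 20. Samples of 1 population lay close together and far from those of the other. The difference was -3.08 ± 0.079, an 8.48-fold lower level on this scale (limma adjusted p = 1.33e-07), and it lay between -3.06 and -3.16 within each of the sets 13 and 14, 15 to 20, 13 to 16, and 17 to 20.

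Fat4, the receptor of Dachsous on neighbouring cells, was at 13.88, 14.57, 14.02 and 14.22 in the CD90-negative samples and at 12.62, 12.41, 12.31 and 12.24 in samples 14, 16, 18 and 20. Every CD90-positive sample was lower than every CD90-negative one, by 1.77 ± 0.15 on average (limma adjusted p = 4.5e-05). Dchs1, the Dachsous ligand of Fat4, was bright at 10.82 ± 0.073 and 10.55 ± 0.11 and fell by 0.27 ± 0.075 (limma adjusted p = 0.0262). Its call was lost after another quantile normalization (limma adjusted p = 0.122) and without any 1 of samples 13 and 16 to 20 (adjusted p 0.0533 to 0.0769). Fat2 and Fat3 were dim in every sample and did not pass the filter. The Celsr genes, seven-pass cadherins of planar polarity, were dim; Celsr1 was tested, at 5.34 ± 0.086 and 5.37 ± 0.12 (limma adjusted p = 0.85), and Celsr2 and Celsr3 were at most at 5.13.

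**Figure D3:**
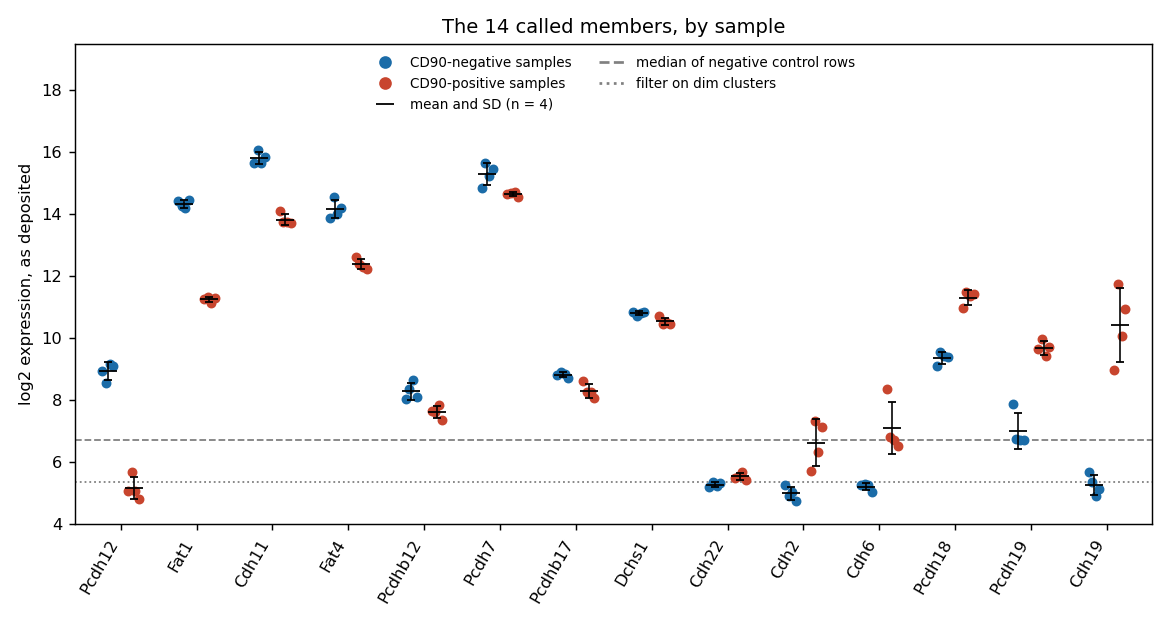
Log2 expression of the 14 called members in each sample, ordered by their difference, with CD90-negative samples in blue and CD90-positive samples in red; bars give mean and SD (n = 4), the dashed line the median of the negative control rows and the dotted line the filter at 5.36. The populations overlap for none of the 14, Fat1 has the tightest groups for its difference of -3.08, and Cdh19 spreads from 8.97 to 11.74 in the CD90-positive samples.

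Non-clustered protocadherins went both ways. Pcdh18 and Pcdh19, relatives in the delta group of protocadherins, whose tails bind regulators of actin, both rose. RefSeq's promoter table (GRCm38.p6) held 28 of the 63 genes, Pcdh18 and Pcdh19 among them, and the bases upstream of the outermost annotated start are shown for this pair because both genes rose and are relatives. Capitals mark matches to a GC box (GGGCGG or CCGCCC) or to a SOX core (ACAAAG or CTTTGT), both strands searched, and both stretches lie on the minus strand, chr3:49757384-49757566 and chrX:133689045-133689243.
Pcdh18: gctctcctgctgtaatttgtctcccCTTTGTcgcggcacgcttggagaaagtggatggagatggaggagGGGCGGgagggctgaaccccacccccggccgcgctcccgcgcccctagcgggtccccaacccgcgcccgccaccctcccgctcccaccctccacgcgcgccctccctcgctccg
Pcdh19: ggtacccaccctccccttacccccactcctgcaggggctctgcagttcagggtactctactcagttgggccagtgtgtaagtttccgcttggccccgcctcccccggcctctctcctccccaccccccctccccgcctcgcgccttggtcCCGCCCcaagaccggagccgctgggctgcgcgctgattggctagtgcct

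The stretches were 183 and 199 bases long, with 72.1% and 68.8% of G and C. Each held 1 GC box, found in 32.7% of all 32851 windows of 250 bases in the table, and that of Pcdh18 held 1 SOX core, found in 16.5% of them. No match to an E-box of the Snail and Zeb kind (CAGGTG or CACCTG, 17.2% of windows) or to TATAAA or TTTATA (12.4%) was in either stretch. These are matches of letters and describe the sequence alone.

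Pcdh18 was at 9.12, 9.55, 9.43 and 9.38 in the CD90-negative samples and at 10.97, 11.49, 11.37 and 11.44 in samples 14, 16, 18 and 20. Every CD90-positive sample was above every CD90-negative one, by 1.95 ± 0.13 on average (limma adjusted p = 1.41e-05). Pcdh19, an X-linked gene of epilepsy in girls, was at 7.89, 6.74, 6.73 and 6.72 in samples 13, 15, 17 and 19 and at 9.67, 9.98, 9.42 and 9.71 in samples 14, 16, 18 and 20. Sample 13 stood above the other CD90-negative samples, which agreed closely and lay just below the control rows, at 6.81. The CD90-negative mean was thus above those rows through sample 13 alone. The populations did not overlap. The difference was 2.68 ± 0.26 (limma adjusted p = 0.000107), 1.78 between samples 13 and 14, the samples high in Xist, and 2.97 in the other 6.

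Pcdh12 and Pcdh7 fell. Pcdh12, a protocadherin described in endothelium and placenta, was at 8.93, 8.55, 9.19 and 9.11 in the CD90-negative samples and at 5.09, 5.67, 5.09 and 4.82 in samples 14, 16, 18 and 20. It was bright in the CD90-negative population and below the control rows in the CD90-positive one, and its difference of -3.78 ± 0.20 (limma adjusted p = 2.79e-06) was the lowest of the 37 tested members. The endothelial markers were mostly dim. Pecam1 was at 6.24 and 6.59 on average, both below the control rows (difference 0.35 ± 0.26; limma adjusted p = 0.35). Of 13 measured genes of the endothelial list 2 were above those rows in CD90-negative samples and 1 in CD90-positive ones, and the list's mean ranged from 5.76 to 6.17 and from 5.80 to 6.29. Of the 9 tested genes of that list, Tek rose and Lyve1 and Prox1 fell, and their part in the Pcdh12 value was not tested.

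Pcdh7, a delta protocadherin, was bright throughout, at 14.85, 15.65, 15.22 and 15.46 in the CD90-negative samples and 14.67, 14.70, 14.71 and 14.55 in samples 14, 16, 18 and 20. Samples 13 and 14 were only 0.18 apart. The groups were separate by a small gap, from 14.71 in sample 18 to 14.85 in sample 13. The difference was -0.64 ± 0.16 (limma adjusted p = 0.0148), and the call was lost after another quantile normalization (limma adjusted p = 0.0908).

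Pcdh1 and Pcdh9 were tested and not called. Pcdh1, a protocadherin of airway epithelium, was dim, at 6.28 ± 0.17 and 6.64 ± 0.21 (difference 0.35 ± 0.12; limma adjusted p = 0.0581); it was called higher without sample 13 (limma adjusted p = 0.0318) or without sample 14 (limma adjusted p = 0.0128). Pcdh9 was high in samples 13 and 14, at 6.95 and 8.30, against 5.08 to 6.66 in the other 6 (difference 0.89 ± 0.53; limma adjusted p = 0.251). With a term for samples 13 and 14 it was called (limma adjusted p = 0.0308), and without sample 14 it was 0.41 (limma adjusted p = 0.495). Pcdh8, Pcdh10, Pcdh11x, Pcdh15, Pcdh17 and Pcdh20 did not pass the filter. Their values lay between 3.70 and 6.03, and the highest was Pcdh11x in sample 14.

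**Figure D4:**
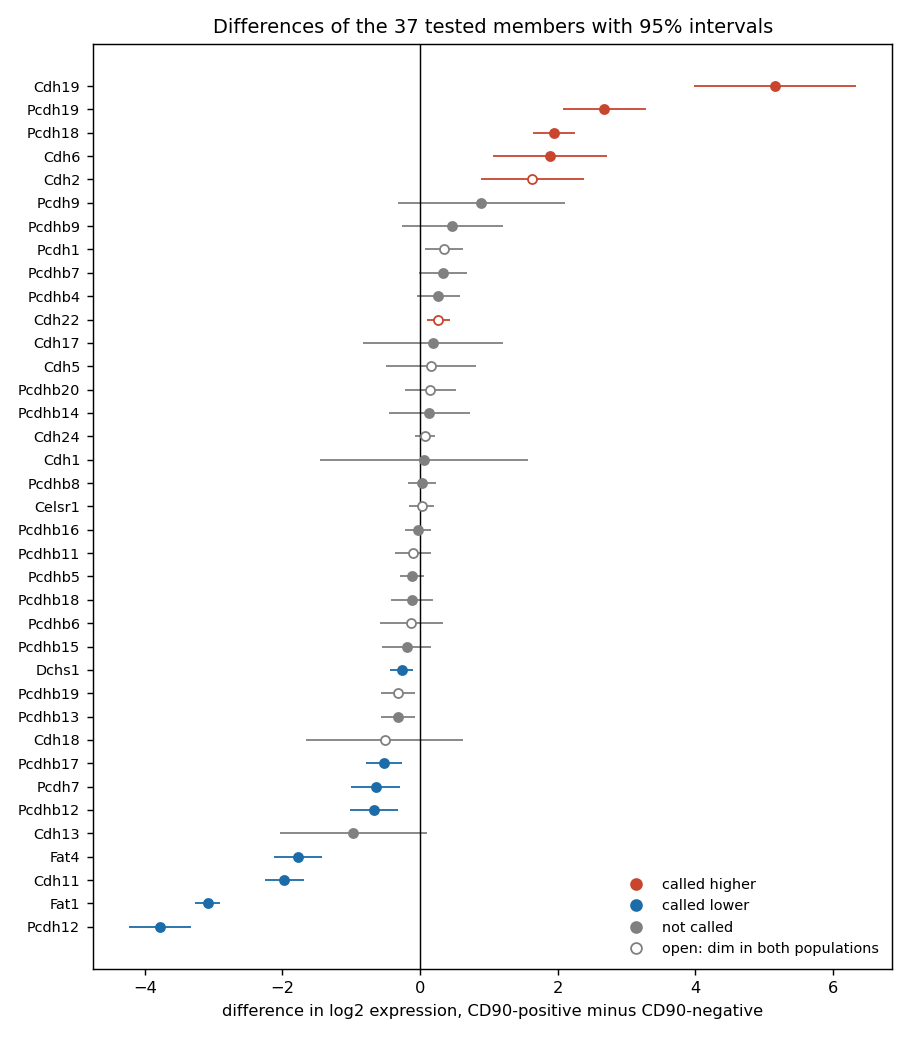
Difference in log2 expression, CD90-positive minus CD90-negative, with its 95% interval from limma, for the 37 tested members; red was called higher, blue called lower and grey not called, and open points are dim in both populations. Differences run from -3.78 for Pcdh12 to 5.16 for Cdh19, and most Pcdhb genes lie within 0.5 of 0.

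The Pcdhb genes, each a single large exon of the clustered protocadherins from which neurons choose at random, differed by at most 0.67 between the populations. Of 20, 16 were tested; 2 fell, 0 rose and 14 were not called, and the median difference was -0.11. With consecutive title numbers as pairs Pcdhb4, Pcdhb7 and Pcdhb9 were also called higher, by 0.27, 0.33 and 0.47 (limma adjusted p = 0.0321, 0.0257 and 0.00634), and Pcdhb19 lower, with a difference of -0.32 (limma adjusted p = 0.04). The 2 called of 16 stand beside 29.7% of all genes tested, and this difference in shares was not tested. Differences this small can go uncalled with 4 samples per population, so a gene not called may still differ. The genes are close copies of each other, so a probe may bind more than 1 of them and each value is uncertain.

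Pcdhb12 was at 8.04, 8.37, 8.65 and 8.11 in the CD90-negative samples and 7.67, 7.61, 7.85 and 7.36 in samples 14, 16, 18 and 20, and fell by 0.67 ± 0.15 (limma adjusted p = 0.0109). Pcdhb17 was at 8.83, 8.91, 8.85 and 8.71 and at 8.62, 8.26, 8.26 and 8.06, and fell by 0.52 ± 0.11 (limma adjusted p = 0.00874). In both genes every CD90-positive sample was lower, by a narrow gap. Among those not called, Pcdhb13 and Pcdhb19 came nearest, with differences of -0.32 ± 0.11 each (limma adjusted p = 0.0511 and 0.0529).

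Pcdhb9 and Pcdhb14 were bright and varied among samples of both populations. Pcdhb9 was at 7.82, 7.99, 9.10 and 8.67 in samples 13, 15, 17 and 19 and at 8.49, 8.48, 9.46 and 9.02 in samples 14, 16, 18 and 20. Samples 17 to 20 were higher than samples 13 to 16 within each population. The difference was 0.47 ± 0.32 (limma adjusted p = 0.314); it was 0.58 in samples 13 to 16 and 0.36 in samples 17 to 20, and with a term for that split it was called (limma adjusted p = 0.0328). Pcdhb14 was at 8.24 ± 0.44 and 8.38 ± 0.41 (limma adjusted p = 0.737). Pcdhb1, Pcdhb2, Pcdhb3 and Pcdhb10 did not pass the filter, with values between 3.74 and 5.42.

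**Figure D5:**
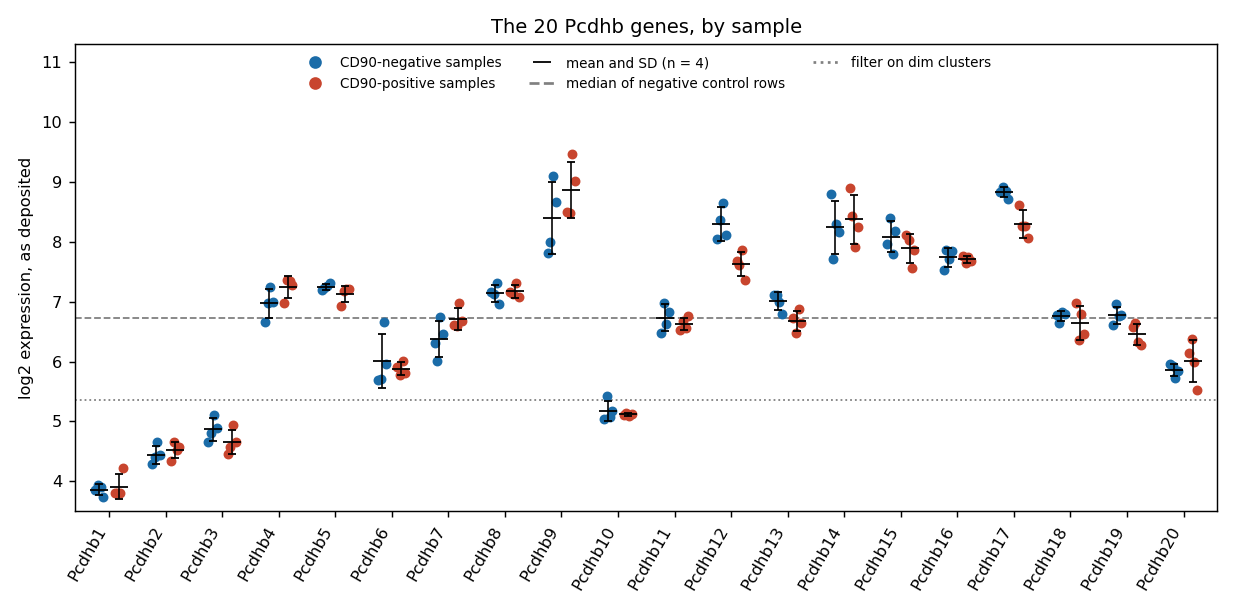
Log2 expression of the 20 Pcdhb genes in each sample, in the order of their names, with CD90-negative samples in blue and CD90-positive samples in red; bars give mean and SD (n = 4), the dashed line the median of the negative control rows and the dotted line the filter at 5.36. The populations overlap in all tested Pcdhb genes but Pcdhb12 and Pcdhb17, and the spread among samples is widest for Pcdhb9.

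Genes that work with these proteins were read from 6 lists, chosen for their known roles with earlier results of these data in view. Of their 77 tested genes, 13 were called higher and 22 lower, against 14% and 15.7% of all genes tested; whether any list differs from those shares was not tested. Among catenins and other junction plaque genes, 6 of 12 tested fell and 1 rose (median difference -0.21). Jup, the plakoglobin gene, fell from 11.19 ± 0.16 to 9.79 ± 0.16, and Vcl, the vinculin gene, from 14.21 ± 0.13 to 13.19 ± 0.056. Ctnnd1, the p120 catenin that keeps cadherins at the surface, fell by 0.76 ± 0.079. Ajuba, a LIM protein of junctions, fell by 2.52 ± 0.26. Ctnna1, the alpha-catenin that links cadherins to actin, was at 10.35 and 10.38 on average (limma adjusted p = 0.767).

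Of 18 tested genes of planar polarity and partners of the Fat proteins, 6 fell and 2 rose (median difference -0.14). Prickle2, a planar polarity adaptor, fell from 9.62 ± 0.12 to 8.29 ± 0.058, Ror2, a Wnt5a receptor, from 10.22 ± 0.30 to 7.97 ± 0.18, and Limd1, a LIM protein of the Hippo pathway, from 11.44 ± 0.17 to 9.61 ± 0.26. Wtip, of the same LIM family as Ajuba and Limd1, fell by 0.56 ± 0.075. Fjx1, a kinase gene of the four-jointed kind that acts on Fat and Dachsous, was dim at 4.17 and 4.16 and was not tested. Of 8 tested nectin, afadin and tight junction genes, Jam2 fell by 1.42 ± 0.15 and Nectin3 by 0.30 ± 0.068, and Pvr rose by 1.11 ± 0.24 (limma adjusted p = 0.00015, 0.0111 and 0.00907).

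Of 21 tested effectors and regulators of protocadherins, 3 rose and 7 fell (median difference -0.071). The kinase genes Fyn and Ptk2b, whose products act at clustered protocadherins, rose from 9.88 ± 0.23 to 11.91 ± 0.19 and from 6.22 ± 0.24 to 8.76 ± 0.47. The cohesin subunit gene Rad21 fell by 0.40 ± 0.066 and the DNA methyltransferase gene Dnmt3a by 0.31 ± 0.056, while Ctcf, whose protein folds the clustered protocadherin locus, was at 9.78 and 9.65 on average (limma adjusted p = 0.234). Of 11 tested sheddase and gamma-secretase genes, 4 rose and 1 fell (median difference 0.21). Adam19 fell from 15.37 ± 0.15 to 12.55 ± 0.11, and Adam17, Psen2 and Adam15 rose by 1.06 ± 0.074, 0.53 ± 0.082 and 0.79 ± 0.12. Adam10, the main sheddase of classical cadherins, was at 11.52 and 11.49 on average (limma adjusted p = 0.892).

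Desmosomal cadherins, calsyntenins and other distant relatives were mostly dim. Of 18 measured, 7 were tested and 2 were above the control rows in each population. Clstn1, a calsyntenin of vesicle transport, rose by 0.31 ± 0.073, and Ret, a receptor kinase with cadherin repeats, rose from 5.20 ± 0.071 to 6.01 ± 0.18, below the control rows in both and having passed the filter through its CD90-positive values alone (limma adjusted p = 0.012 and 0.000273). The other 5 tested, among them the epithelial genes Dsg2, Dsc2 and Cdhr5, were not called.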

How the data were processed

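Per the labels' protocols, 2 ng of RNA per sample was amplified and hybridised to 1 Affymetrix mouse transcriptome array. Such amplification can widen the scatter of weakly expressed genes. The deposited values are log2 expression that the authors computed by RMA in Expression Console 1.1, per the submitters' processing notes, which give no settings here. The table held 65956 transcript clusters and 5222 negative control rows. Clusters that name 1 gene in the platform annotation numbered 31258, with symbols updated through RefSeq. All 17221 genes that passed the filter were tested in limma 3.58.1 (R 4.3.3), two-sided, without a block. The members, lists and naming rule were chosen with earlier results of these data known. The naming rule took every called member outside the Pcdhb genes, the 3 brightest per subfamily, and up to 4 called genes per partner list by smallest p; other genes were named after their values were seen. Deviations from the population means correlated at 0.29 to 0.45 within consecutive title numbers, but no label pairs samples. Among the CD90-positive samples the consecutive number was the best match of samples 13, 15 and 17. It was not the best match of sample 19. The fit was first tested on simulated data in which 55 genes differed by 0.5, 72 by 1 and 73 by 2. The fit called 178 genes there, 11 of them unchanged. It recovered 54.5% of simulated differences of 0.5, 90.3% of those of 1 and 98.6% of those of 2. Far fewer genes differed by design there than were called in these samples, so these shares may not hold here. Marker lists of leukocytes and mesothelium had 5 higher and 0 lower of 6 tested and 2 and 0 of 4. The fibroblast list had 3 and 1 of 7, with the sort gene Thy1 among the 3. Alternatives changed the filter, normalization, variance model, array weights, choice of cluster, covariates and samples.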

Additional observations from a re-analysis of the deposited data

Results flagged for a closer look

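In 4 of the 74 groups of 4 samples examined, 1 sample lay apart from the other 3 by more than Dixon's critical value; chance gives about 1 in 20 such groups. Cdh11 was at 14.11 in CD90-positive sample 14, against 13.72 to 13.77 in the other CD90-positive samples. Cdh6 was at 8.37 in the same sample, against 6.53 to 6.81. Pcdhb5 was at 6.93 there, against 7.18 to 7.22. Pcdh19 was at 7.89 in CD90-negative sample 13, against 6.72 to 6.74.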

How the results depend on the processing

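Of the 14 called members, 11 kept their call and direction under every one of the 20 alternatives in which they were tested; Cdh22, Dchs1 and Pcdh7 did not, as given with their values. Of the 23 that were not called, 14 were called under none. No difference of a called member changed sign. A filter at the negative control median called 3 members higher, since Cdh2, Cdh6 and Cdh22 were not tested there, and 9 lower. Counting bright members alone, a setting chosen after seeing the data, gave 4 higher and 8 lower. Without a filter 9 were called higher, the 3 more being Cdh10, Pcdh10 and Pcdh11x, by 0.47, 0.42 and 0.82 at dim levels. The populations share no title number and no label pairs samples; in a fit with consecutive numbers as a replicate block 10 members were called higher, among them Pcdh9, Pcdhb4, Pcdhb7 and Pcdhb9, and 9 lower, and the cause was not tested. Leaving out 1 sample at a time gave 5 to 7 higher, 7 to 8 lower, 28 to 34 partner genes, 3982 to 5207 genes in all, 26 to 27 bright members, and a Thy1 difference of 2.03 to 2.39. Probes have no detection calls here, so bright and dim are set by the negative control rows alone. Another set of 23 background control rows had medians of 3.20 to 3.33 per sample, far below that line. A dim gene may thus still be expressed.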
